A study of Mus musculus with 8 samples.

Results

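Chemokines and their receptors were examined in pericytes cultured from mouse brain. Protein-coding genes were taken by name (Ccl, Cxcl, Cx3cl1 and Xcl1 for the ligands, and Ccr, Cxcr, Cx3cr1, Xcr1, Ackr1 to Ackr4 and Ccrl2 for the receptors), which gave 67 of the 54532 gene identifiers in the files. They comprised 30 CC ligands, 12 CXC ligands, 2 ligands of the CX3C and XC classes, 18 signalling receptors and 5 atypical receptors. The 67 identifiers carried 62 symbols, because Ccl19, Ccl21a, Ccl21b and Ccl27 were listed more than once, and 7 of them lay on scaffolds outside the chromosomes and had 0 counts. Total RNA was sequenced from 8 wild-type (WT) primary cultures, 4 given vehicle and 4 given TGF-β1 at 5 µg/mL, each for 48 h. Strain and age are not in the labels, and the methods describe cells expanded over several passages on collagen I, so the cultures model expanded cells and not pericytes in a vessel wall. The labels number the cultures separately and do not pair them; p-values measure only the spread between these 8 cultures, which may be partly technical.

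Chemokines are small secreted or membrane-anchored proteins, classed by the spacing of their first cysteines, that steer moving leukocytes through G protein-coupled receptors. Atypical receptors bind chemokines without signalling through G proteins and mostly capture, transport or present them. In vessel walls, mural cells such as pericytes are a known source of chemokines that guide leukocytes and progenitor cells across or along the endothelium.

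Library totals ran from 45255235 to 47651397 counts and did not differ detectably between groups (exact two-sided permutation test, p = 0.857). Levels are given as CPM, counts scaled to a common library size with TMM factors, on which 3 counts were worth 0.0631 to 0.0657 CPM; no library stood apart within its group. Of 13 pericyte markers, 7 had a mean of at least 1 CPM over all 8 cultures. They included Pdgfrb (202 CPM with vehicle), Cspg4 (82.8 CPM) and Notch3 (88.4 CPM). Kcnj8, Abcc9 and Vtn, which mark pericytes in brain tissue, reached at most 9 counts, and the fibroblast-associated collagen gene Col1a1 stood at 1586 CPM. Of 10 TGF-β response genes, 9 were called higher with TGF-β1, beside 20.9% of all genes tested, and 1, Tgfbi, was lower. In bulk RNA, fewer cells of a type and less RNA per cell cannot be told apart.

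Of the 67 members, 24 had a mean of at least 1 CPM in at least 1 group, and 19 of these were at or above 1 CPM in all 8 cultures. A filter on low counts left 31 to test (19 ligands and 12 receptors), of which 18 were called at an adjusted p under 0.05 (edgeR quasi-likelihood test, Benjamini-Hochberg adjustment over 22544 genes). The members called were 58.1% of those tested, beside 41.3% of all genes tested. Of the 18, 7 were higher with TGF-β1 (20.9% of all genes were called higher) and 11 lower (20.3% of all genes). The cultures of the 2 groups did not overlap for 17 of the 31, against 37.9% of all genes. The median log2 fold change was 0.03 over the members tested and -0.01 over all genes. Among ligands 3 rose and 8 fell, with a median of -0.20, and among receptors 4 rose and 3 fell, with a median of 0.19.

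**Figure D1:**
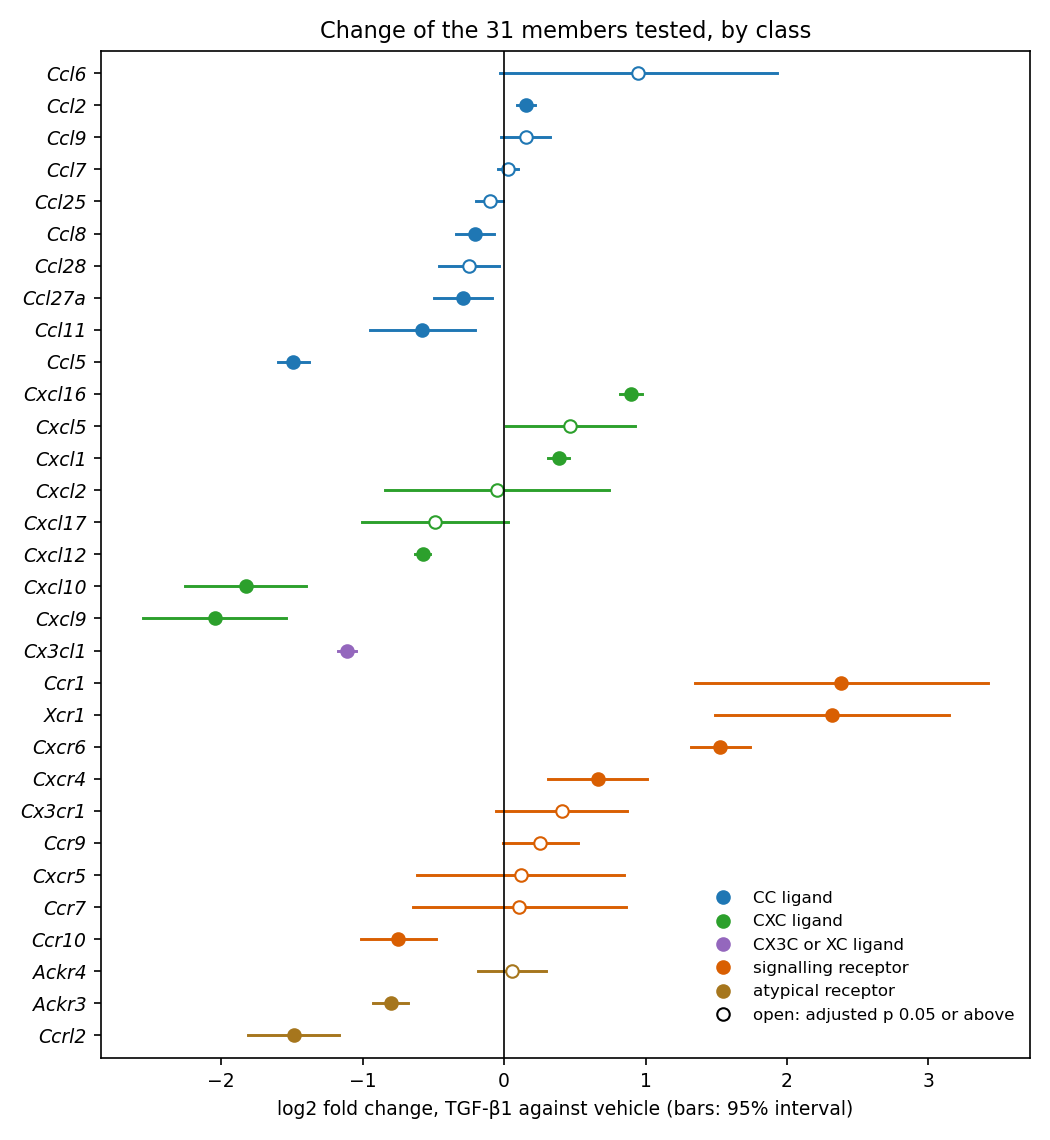
The log2 fold change with TGF-β1 against vehicle of each member tested (horizontal axis, bars are 95% intervals), grouped and coloured by class, with filled points for an adjusted p under 0.05. Cxcl9, Cxcl10, Ccl5, Ccrl2 and Cx3cl1 lie at -1.11 or below, and Cxcr6, Xcr1 and Ccr1 lie at 1.53 or above.

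Cxcl9 and Cxcl10, CXC ligands that are induced by interferon and attract T cells and natural killer cells through Cxcr3, fell together, and Cxcl1, a neutrophil attractant bound by Cxcr2, rose. The stretches before their starts are shown because they let the letters of sequence motifs for inflammatory factors be set beside opposite changes. RefSeq windows on GRCm38.p6, from 250 bases before to 50 after a start, were found for 21 of the 31 members tested (26 windows, since some have several starts). The kB motif bound by NF-kB was searched on both strands as GGG, any 5 bases and CC, and capitals mark its matches in the first 5 windows. Cxcl2, another neutrophil attractant, did not pass the test, and Ccrl2, an atypical receptor, fell. The window shown for Ccrl2 is 1 of 3, and the other two had no kB match. In the window of Cxcr6, which rose, capitals mark the SMAD box CAGAC, the letters bound by SMAD3, the transcription factor downstream of TGF-β. SMAD box letters in the windows of Cxcl1 and Cxcl2 are left in lower case, except for a C in Cxcl2 that also ends a kB match. Each window runs 5′ to 3′ on the strand of its gene.
Cxcl9 (chr5:92328030-92328329, minus strand): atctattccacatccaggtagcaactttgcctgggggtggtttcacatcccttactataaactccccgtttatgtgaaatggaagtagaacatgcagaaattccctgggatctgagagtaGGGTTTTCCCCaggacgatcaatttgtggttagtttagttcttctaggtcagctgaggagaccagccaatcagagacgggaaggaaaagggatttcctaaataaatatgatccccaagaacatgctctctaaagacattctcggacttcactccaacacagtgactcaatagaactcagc
Cxcl10 (chr5:92348840-92349139, minus strand): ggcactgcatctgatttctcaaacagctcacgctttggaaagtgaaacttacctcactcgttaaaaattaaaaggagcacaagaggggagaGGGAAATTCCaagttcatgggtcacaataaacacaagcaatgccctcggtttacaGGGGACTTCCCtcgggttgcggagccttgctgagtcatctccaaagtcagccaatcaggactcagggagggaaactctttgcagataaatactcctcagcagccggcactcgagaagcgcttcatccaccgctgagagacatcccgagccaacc
Ccrl2 (chr9:111057469-111057768, minus strand): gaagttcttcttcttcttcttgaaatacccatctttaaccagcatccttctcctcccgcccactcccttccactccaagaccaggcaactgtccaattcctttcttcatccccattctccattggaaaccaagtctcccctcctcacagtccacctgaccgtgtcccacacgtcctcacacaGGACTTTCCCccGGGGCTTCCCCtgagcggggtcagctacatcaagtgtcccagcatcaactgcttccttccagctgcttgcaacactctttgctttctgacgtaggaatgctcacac
Cxcl1 (chr5:90890995-90891294, plus strand): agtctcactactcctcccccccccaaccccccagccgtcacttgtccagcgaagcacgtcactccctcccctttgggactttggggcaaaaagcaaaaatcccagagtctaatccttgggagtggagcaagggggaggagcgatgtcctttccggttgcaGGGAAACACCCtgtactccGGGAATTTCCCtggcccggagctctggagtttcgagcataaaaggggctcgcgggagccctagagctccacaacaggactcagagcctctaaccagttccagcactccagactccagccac
Cxcl2 (chr5:90903649-90903948, plus strand): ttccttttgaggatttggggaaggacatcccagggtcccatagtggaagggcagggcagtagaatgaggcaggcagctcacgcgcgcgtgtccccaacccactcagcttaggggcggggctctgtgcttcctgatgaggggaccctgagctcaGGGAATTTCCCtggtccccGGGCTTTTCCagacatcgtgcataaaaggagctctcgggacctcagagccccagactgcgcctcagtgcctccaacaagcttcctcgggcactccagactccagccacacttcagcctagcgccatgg
Cxcr6 (chr9:123806227-123806526, plus strand): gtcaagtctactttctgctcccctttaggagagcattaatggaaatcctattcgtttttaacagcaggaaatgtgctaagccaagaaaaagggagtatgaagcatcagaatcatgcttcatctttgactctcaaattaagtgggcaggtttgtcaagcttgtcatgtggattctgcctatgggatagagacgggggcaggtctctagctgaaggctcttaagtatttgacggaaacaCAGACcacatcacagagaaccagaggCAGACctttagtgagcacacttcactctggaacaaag

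The kB letters were in windows of members that fell (Cxcl9, Cxcl10, Cxcl12, Ccl27a and Ccrl2), of members that rose (Cxcl1 and Ccr1) and of members that were not called (Cxcl2, Ackr4, Ccl9, Ccl28, Ccr9 and Cx3cr1). They were held by 15 of the 26 windows of tested members (57.7%) and by 50.8% of all 32851 promoter windows of that length. The SMAD box, searched on both strands, was in 14 of the 26 windows (53.8%) and in 49.6% of all. It was in windows of members that fell (Ccl8, Ccl27a and Ccrl2) and of members that rose (Cxcl1 and Cxcr6). Windows of Ackr4, Ccl25, Ccl28, Ccr9, Cx3cr1 and Cxcl2, which were not called, held it too. Cxcr4, Ccr1 and Xcr1 rose and had no match in their windows. The 2 matches in the Cxcr6 window began 13 bases before and 13 after the start position. An interferon response core spelled GAAA, any 2 bases and GAAA was in 1 of the 26 windows, that of Cxcl10 (lower-case letters gaaagtgaaa), and in 3.44% of all windows. The AP-1 motif TGANTCA was in 5 of 26 (19.2%), those of Cxcl9, Cxcl10, Ccl9, Ccl28 and 1 start of Ccl27a, and in 7.81% of all. A GAS motif spelled TTCNNNGAA was in 0 of 26 and in 8.30% of all. Motifs were counted separately where their matches overlapped, and a match describes letters only, with no binding measured.

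Cxcl10 stood at 100.5, 81.8, 105.7 and 87.8 CPM in the vehicle cultures and at 27.1, 35.2, 21.4 and 22.4 CPM in the TGF-β1 cultures. The highest TGF-β1 culture was thus far under the lowest vehicle culture. The gene (ENSMUSG00000034855, GRCm38 chr5:92346638-92348889) fell by 71.8%, a log2 fold change of -1.83 (SE 0.18, adjusted p = 0.000169). Cxcl9 (ENSMUSG00000029417, chr5:92321347-92328079) was much lower in reads, at 2.32, 1.62, 2.00 and 1.80 CPM with vehicle and 0.262, 0.827, 0.523 and 0.255 CPM with TGF-β1. Its groups did not overlap either, and it fell by 75.8% (log2 fold change -2.05, SE 0.25, adjusted p = 1.14e-08). Cxcr3, the receptor of both, was not tested, with at most 6 counts in any culture. Cxcl10 lies within Art3 on the opposite strand and shares 5.91% of its exon length with other genes. Art3 had 0.671 ± 0.282 and 0.416 ± 0.0917 CPM (SD, n = 4), far less than Cxcl10.

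Ccl5 (RANTES), a CC ligand that attracts T cells and monocytes and is also induced in inflammation, fell as well. Its levels were 37.4, 33.5, 33.1 and 35.5 CPM with vehicle and 12.4, 14.0, 11.7 and 11.6 CPM with TGF-β1, with a clear gap between groups. It fell by 64.4%, a log2 fold change of -1.49 (SE 0.05, adjusted p = 1.25e-25; ENSMUSG00000035042, chr11:83525778-83530518). Ccr1, one of its receptors, is described with the receptors.

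Cxcl12 (SDF-1), which holds and recruits haematopoietic and progenitor cells through Cxcr4, was the member with the most reads in both groups. It was measured at 315.6, 308.8, 312.5 and 311.6 CPM in vehicle cultures and at 222.7, 202.4, 209.7 and 203.1 CPM after TGF-β1. The vehicle cultures had an SD of 2.82 CPM, and all 4 treated cultures were lower. Its log2 fold change was -0.58 (SE 0.03, adjusted p = 9.86e-23; ENSMUSG00000061353, chr6:117168535-117181367), and it made up 33.0% of the summed CPM of the members with vehicle and 29.8% with TGF-β1.

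Cx3cl1 (fractalkine), a membrane-anchored ligand that tethers microglia and monocytes carrying Cx3cr1, was second in CPM with vehicle. Its cultures had 166.2, 160.9, 152.9 and 157.2 CPM with vehicle and 76.6, 74.3, 76.1 and 68.0 CPM with TGF-β1. All treated cultures were under all vehicle cultures, and Cx3cl1 fell by 53.7%, a log2 fold change of -1.11 (SE 0.03, adjusted p = 2.91e-26; ENSMUSG00000031778, chr8:94772009-94782427). None of the motifs searched was in its promoter window.

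Cxcl16, the other chemokine made as a transmembrane protein, moved the opposite way. The values were 29.0, 26.5, 28.1 and 27.0 CPM with vehicle and 50.1, 53.2, 51.5 and 51.4 CPM with TGF-β1. The groups were well separated, and the gene rose by 86.4% (log2 fold change 0.90, SE 0.04, adjusted p = 2.39e-23; ENSMUSG00000018920, chr11:70453983-70459984). Over 18.3% of its exon length it overlaps other genes, of which Zmynd15, on the opposite strand, went from 5.48 ± 0.403 to 9.16 ± 0.491 CPM (log2 fold change 0.74, adjusted p = 2.59e-10). The strand setting of the counting is not given in the sources used here, so reads from the overlap cannot be told apart.

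Of the neutrophil-attracting CXC ligands, Cxcl1 was at 43.3, 46.2, 44.8 and 44.3 CPM with vehicle and 59.8, 60.8, 56.9 and 55.8 CPM with TGF-β1. These groups did not overlap, and Cxcl1 rose by 30.6% (log2 fold change 0.39, SE 0.04, adjusted p = 1.59e-12; ENSMUSG00000029380, chr5:90891241-90893115). Cxcl5 averaged 0.768 CPM with vehicle and 1.07 CPM with TGF-β1 (adjusted p = 0.0947), with a 95% interval of 0.01 to 0.92 on the log2 scale before adjustment. Cxcl2 averaged 0.301 and 0.291 CPM, with an interval of -0.84 to 0.74 that leaves changes of either sign possible. Cxcl17, a mucosal ligand, averaged 0.996 and 0.709 CPM (adjusted p = 0.128). Cxcl3, Cxcl13, Cxcl14 and Cxcl15 were not tested, with at most 8, 6, 4 and 11 counts in any culture.

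**Figure D2:**
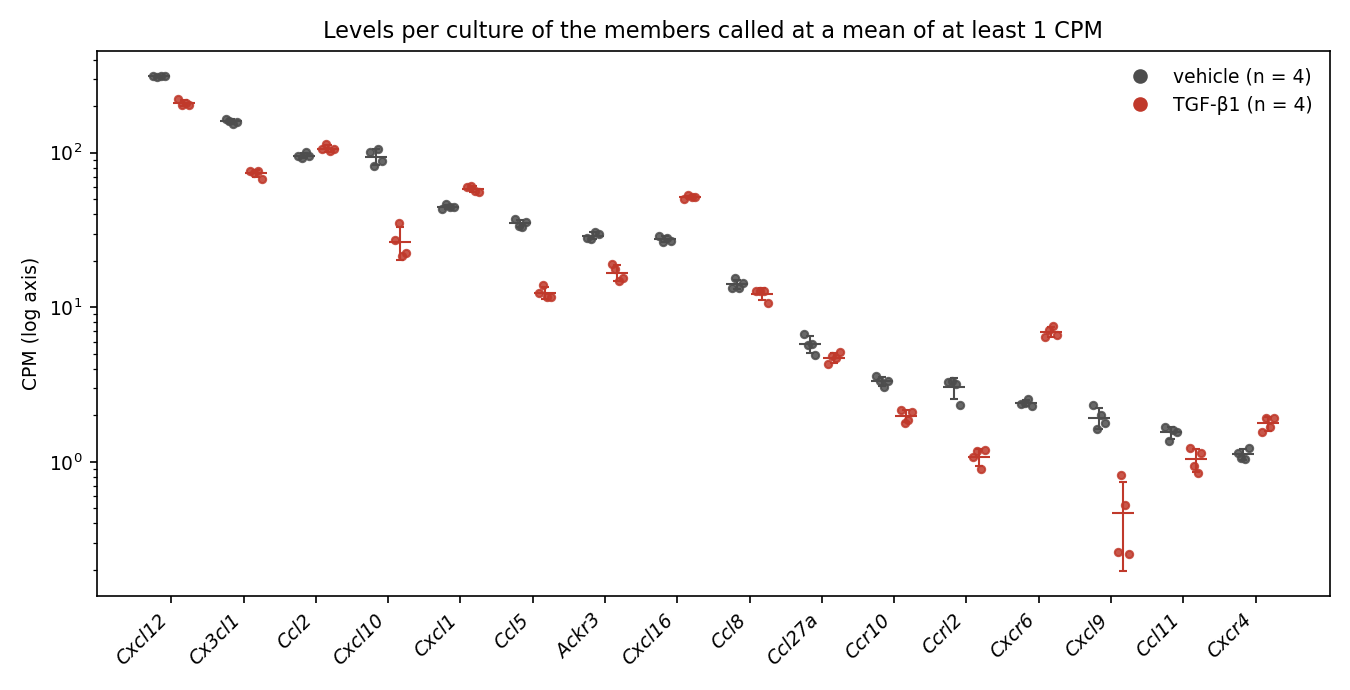
CPM per culture (vertical log axis) of the 16 members called at a mean of at least 1 CPM in at least 1 group, with 4 vehicle cultures (grey) and 4 TGF-β1 cultures (red) per gene, and the mean with its SD drawn over the points. The groups are apart for every gene drawn except Ccl27a, where the lowest vehicle culture (4.89 CPM) lies under the highest TGF-β1 culture (5.10 CPM).

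The monocyte attractants Ccl2 and Ccl7, ligands of Ccr2, changed little. Ccl2 (MCP-1) stood at 95, 92.2, 100.5 and 94.7 CPM with vehicle and 104.9, 113.7, 101.9 and 105.0 CPM with TGF-β1. The groups were close but did not overlap, and the rise was 11.3% (log2 fold change 0.15, SE 0.03, adjusted p = 7.51e-05; ENSMUSG00000035385, chr11:82035571-82037453). Ccl7 averaged 63.6 ± 1.90 CPM with vehicle and 64.9 ± 4.00 CPM with TGF-β1 (SD, n = 4), and its interval of -0.04 to 0.10 bounds any change to a small one. Ccr2 itself had at most 7 counts.

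Ccl8 (MCP-2), from the same cluster on chromosome 11, was at 13.4, 15.4, 13.4 and 14.3 CPM with vehicle and 12.8, 12.8, 12.7 and 10.7 CPM with TGF-β1. The lowest vehicle culture was just above the highest treated one, and the log2 fold change of -0.20 (SE 0.07, adjusted p = 0.0120; ENSMUSG00000009185, chr11:82115185-82116799) did not hold without TGF-β1 culture 8 (-0.13, adjusted p = 0.121) or without vehicle culture 2 (-0.16, adjusted p = 0.0769). Ccl11 (eotaxin), an eosinophil attractant, was at 1.69, 1.36, 1.60 and 1.56 CPM with vehicle and 1.22, 0.936, 0.850 and 1.148 CPM with TGF-β1. It was lower in all 4 treated cultures than in any vehicle culture (log2 fold change -0.58, SE 0.19, adjusted p = 0.0101; ENSMUSG00000020676, chr11:82057823-82062955). Ccl9 averaged 6.58 and 7.31 CPM (adjusted p = 0.165), and Ccl6, a relative of Ccl9 found in rodents, averaged 0.155 and 0.303 CPM (adjusted p = 0.119).

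The remaining CC ligands detected act mainly at epithelia. Ccl27a (CTACK), a ligand of Ccr10, was at 6.70, 5.70, 5.82 and 4.89 CPM with vehicle and 4.27, 4.83, 4.69 and 5.10 CPM with TGF-β1, so the groups overlapped. The log2 fold change was -0.29 (SE 0.10, adjusted p = 0.0170; ENSMUSG00000073888, chr4:41769467-41774247), and it did not pass without vehicle culture 1 (-0.21, adjusted p = 0.129) or without TGF-β1 culture 5 (-0.25, adjusted p = 0.0648). Its level is uncertain, since 44.98% of the 50-base words in its transcripts also occur in those of other genes. Ccl28, also a ligand of Ccr10, averaged 5.11 and 4.29 CPM and just missed the threshold (adjusted p = 0.0512). Ccl25, the thymus and gut ligand of Ccr9, averaged 29.4 ± 1.70 and 27.4 ± 1.64 CPM (SD, n = 4; adjusted p = 0.0855).

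CC ligands with a few counts that were not tested were Ccl1 (at most 6 counts in any culture), Ccl3 (6), Ccl4 (2), Ccl12 (6), Ccl17 (10), Ccl20 (14), Ccl22 (8) and Ccl24 (2). The lymphoid-organ ligands Ccl19, Ccl21a, Ccl21b and Ccl21c, together with Ccl26, Ccl27 and Ccl27b, had 0 counts in all 8 cultures in each of their 12 identifiers, which allows up to 3 counts per culture. Many of these are near-identical copies, among which reads could be lost in the counting. The lymphotactin gene Xcl1 had at most 3 counts.

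Cxcr6, the receptor of Cxcl16 on T cells and innate lymphocytes, was the receptor at over 1 CPM with the largest rise. It was at 2.36, 2.39, 2.54 and 2.29 CPM with vehicle and 6.43, 7.09, 7.59 and 6.59 CPM with TGF-β1. The lowest treated culture was far above the highest vehicle culture, and the fitted change was 2.89-fold (log2 fold change 1.53, SE 0.10, adjusted p = 1.26e-16; ENSMUSG00000048521, chr9:123806475-123811760). The gene lies within Fyco1 on the opposite strand, with no shared exon. Fyco1 was at 77.4 ± 3.67 and 89.2 ± 2.63 CPM (log2 fold change 0.21, adjusted p = 6.2e-07), and the part of its unspliced RNA in the Cxcr6 counts was not tested.

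Cxcr4, the signalling receptor for Cxcl12, was near 1 CPM, at 1.149, 1.05, 1.05 and 1.23 CPM with vehicle and 1.57, 1.91, 1.68 and 1.93 CPM with TGF-β1. All treated cultures were higher (log2 fold change 0.66, SE 0.17, adjusted p = 0.00167; ENSMUSG00000045382, chr1:128588199-128592293). Ackr3 (CXCR7), the atypical receptor that scavenges Cxcl12, had 28.2, 27.5, 30.9 and 29.9 CPM with vehicle and 19.0, 17.6, 14.8 and 15.4 CPM with TGF-β1. The groups were apart and Ackr3 fell by 42.7% (log2 fold change -0.80, SE 0.06, adjusted p = 5.13e-13; ENSMUSG00000044337, chr1:90203980-90216751). The ratio of Cxcr4 to Ackr3 CPM, chosen after their values were seen, was 0.0386 ± 0.00330 with vehicle and 0.108 ± 0.0182 with TGF-β1 (SD, n = 4). For Cxcl12 over Ackr3, the ratio was 10.7 ± 0.548 and 12.6 ± 1.26.

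Ccrl2, an atypical receptor that presents chemerin and is induced in inflammation, was at 3.29, 3.33, 3.20 and 2.34 CPM with vehicle and 1.07, 1.17, 0.894 and 1.19 CPM with TGF-β1. Every treated culture was lower, and the log2 fold change was -1.49 (SE 0.16, adjusted p = 1.05e-10; ENSMUSG00000043953, chr9:111054486-111057519). Ccr10 was at 3.62, 3.33, 3.07 and 3.31 CPM with vehicle and 2.16, 1.78, 1.88 and 2.10 CPM with TGF-β1. The groups did not overlap (log2 fold change -0.75, SE 0.13, adjusted p = 6.5e-06; ENSMUSG00000044052, chr11:101172997-101175443). It lies within Cntnap1 on the opposite strand, with no shared exon, and Cntnap1 was at 20.5 ± 0.657 and 17.4 ± 0.810 CPM (log2 fold change -0.24, adjusted p = 0.000225). Ackr4, which scavenges Ccl19, Ccl21 and Ccl25, averaged 3.49 and 3.62 CPM (interval -0.19 to 0.30).

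Xcr1, the receptor of Xcl1 on cross-presenting dendritic cells, and Ccr1, a receptor of Ccl5 on monocytes and neutrophils, rose at levels under 1 CPM. Xcr1 had 6, 2, 6 and 6 counts with vehicle and 23, 25, 35 and 18 with TGF-β1 (log2 fold change 2.32, SE 0.41, adjusted p = 7.46e-06). Ccr1 had 3, 3, 0 and 8 counts with vehicle and 10, 27, 22 and 16 with TGF-β1 (log2 fold change 2.39, SE 0.51, adjusted p = 0.000153). The groups did not overlap for either gene, but with vehicle both genes were near the level of 3 counts, and the size of the fold is uncertain. With at least 10 counts required in every culture, neither was tested.

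Cx3cr1 averaged 0.776 and 1.03 CPM (adjusted p = 0.163) and Ccr9 2.58 and 3.08 CPM (adjusted p = 0.118). Ccr7 averaged 0.297 and 0.320 CPM and Cxcr5 0.324 and 0.351 CPM, with intervals of -0.65 to 0.86 and -0.62 to 0.85. Ccr9 overlaps other genes over 21.4% of its exons. Receptors with too few counts to test included Ccr2 (at most 7 counts in any culture), Ccr3 (6), Ccr4 (16), Ccr6 (2), Ccr8 (8), Cxcr1 (7), Cxcr2 (6), Cxcr3 (6), Ackr1 (8) and Ackr2 (12).

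Several of these receptors are leukocyte genes, so markers of other cells were read beside them. Over all genes tested, 20.9% were called higher and 20.3% lower. Of 15 macrophage and microglia markers 10 were tested and 2 were higher, Csf1r (1.502 to 2.502 CPM) and Cd14 (11.6 to 16.9 CPM), while C1qb was at 0 and C1qa, C1qc and Tyrobp had at most 2 counts. The summed level of the list was 121 to 125 CPM with vehicle and 124 to 128 CPM with TGF-β1, most of it Tmem119. Of 11 lymphocyte and neutrophil markers 3 were tested and S100a8 was higher, with a sum of 1.21 to 2.10 and 2.20 to 2.83 CPM. Of 10 endothelial markers 6 were tested, 2 higher and 1 lower, with a sum of 472 to 485 and 475 to 500 CPM, mostly Cdh5, while Pecam1 stood at 1.11 CPM in both groups. Of 10 glial markers 9 were tested, 3 in each direction, with sums of 60.3 to 66.4 and 46.4 to 51.1 CPM. Of 13 pericyte markers 10 were tested, 4 higher and 3 lower (574 to 593 and 749 to 777 CPM), and of 7 fibroblast markers 6 were tested, 3 higher and 2 lower (4481 to 4706 and 6553 to 6829 CPM). The part of these cells in the receptor changes was not tested.

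Set side by side, ligands and their receptors moved in different combinations. Cxcl16 and Cxcr6 both rose, and Ccl27a and Ccr10 were both called lower. The groups overlapped for Ccl27a, and its call was lost in some fits with a culture left out. Genes that overlap or contain Cxcl16, Cxcr6, Ccl27a and Ccr10 moved the same way as these members, and their part in the counts was not tested. For Cxcl12, the ligand and the scavenger Ackr3 fell while Cxcr4 rose. Cx3cl1 fell, with Cx3cr1 not called, and for Ccl25 neither the ligand nor Ccr9 or Ackr4 was called. These counts give RNA of whole cultures, and no binding or protein was measured.

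**Figure D3:**
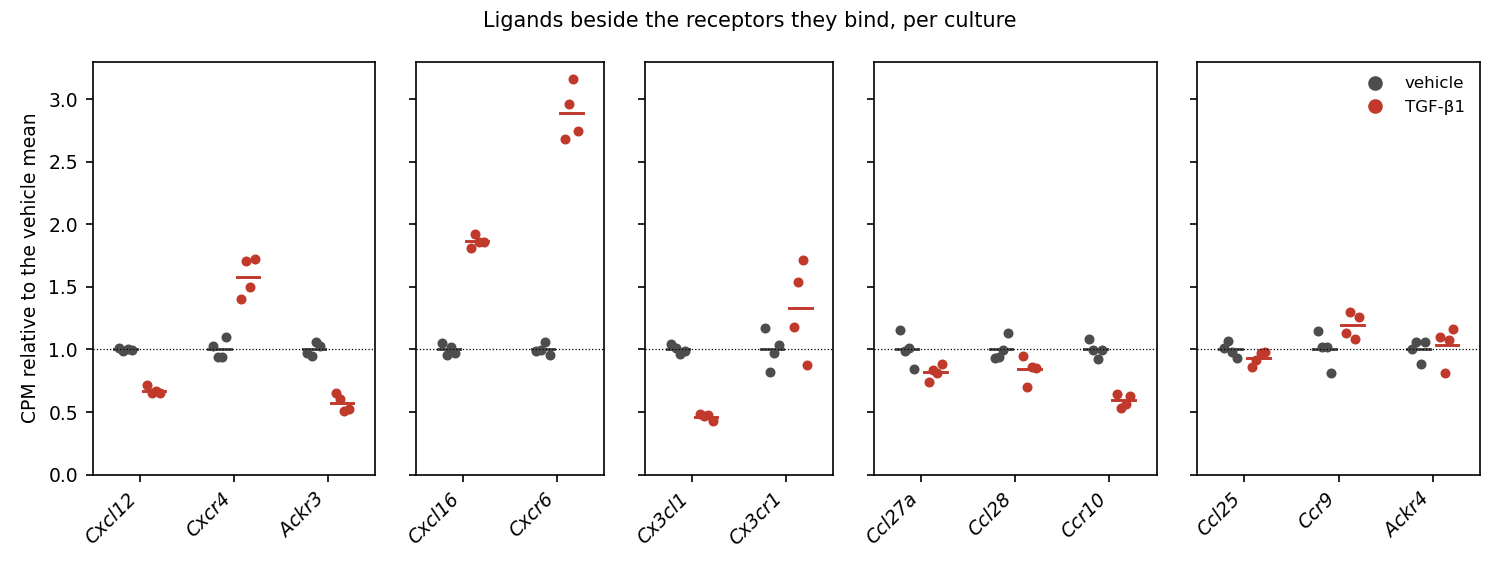
CPM in each culture divided by the vehicle mean of the gene (vertical axis, from 0), for 5 ligand and receptor groups, with bars at the group means and a dotted line at the vehicle mean. Cxcl16, Cxcr6, Cxcr4 and Ccr9 are above the line in all 4 TGF-β1 cultures. Cxcl12, Ackr3, Cx3cl1, Ccr10, Ccl27a, Ccl28 and Ccl25 are below it in all 4. Of these genes, Ccr9, Ccl28 and Ccl25 were not called.

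Members that lie close together, with gaps of at most 200 kb, were also read as blocks. The block chr11:82035571-82305690 holds Ccl2, which rose, Ccl7, which was not called, and Ccl11 and Ccl8, which fell, beside the untested Ccl12 and Ccl1. In chr11:83525778-83664683, Ccl5 fell while Ccl9 and Ccl6 were not called, and in chr5:90759360-90905938 Cxcl1 rose while Cxcl5 and Cxcl2 were not called. At chr8:94745590-94812036, Cx3cl1 fell between Ccl22 and Ccl17, which had too few counts. The pair Cxcl9 and Cxcl10 at chr5:92321347-92348889 both fell. In the receptor cluster chr9:123678439-124147699, 4 of 7 genes were tested and 3 rose (Cxcr6, Xcr1 and Ccr1), beside 20.9% of all genes called higher. Xcr1 and Ccr1 rose at levels under 1 CPM, and Ccr9, at a log2 fold change of 0.26, was not called.

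Levels were compared between genes as RPKM, the CPM divided by the exon length in kilobases. That length merges the exons of all annotated transcripts of a gene, 8176 bases for Cxcl12 and 1138 for Ccl2. The order therefore depends on this choice of length, and the transcripts in use were not tested. By CPM, Cxcl12 came first in both groups. With vehicle, Ccl2 (84.0 ± 3.11 RPKM) and Ccl7 (79.4 ± 2.38) came highest, with overlapping ranges. Cxcl10 (41.7 ± 4.91), Cx3cl1 (40.5 ± 1.43), Cxcl12 (38.2 ± 0.345) and Ccl5 (36.3 ± 2.06) followed, and the ranges of Cxcl10 and Cx3cl1 overlapped, as did those of Cxcl12 and Ccl5. The range of Cxcl10 also took in that of Cxcl12 and overlapped that of Ccl5, so the order among these genes is not settled. With TGF-β1, Ccl2 (93.5 ± 4.47) and Ccl7 (81.1 ± 4.99) still led, and Cxcl1 (31.1 ± 1.27) came next. Cxcl10 went from rank 3 to rank 9 (11.8 ± 2.81 RPKM) and Ccl5 from rank 6 to rank 8 (12.9 ± 1.14 RPKM). The highest receptor was Ackr3, at 8.70 ± 0.456 RPKM with vehicle and 4.99 ± 0.583 with TGF-β1. Summed over the members, CPM went from 947 ± 19.0 to 703 ± 21.8, a ratio of 0.742, with vehicle cultures between 927 and 966 and treated cultures between 677 and 724. The largest falls in CPM were those of Cxcl12 (312 to 209), Cx3cl1 (159 to 73.8) and Cxcl10 (94.0 to 26.5). Of the members tested 11 were called lower and 7 higher, with a median log2 fold change of 0.03.

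**Figure D4:**
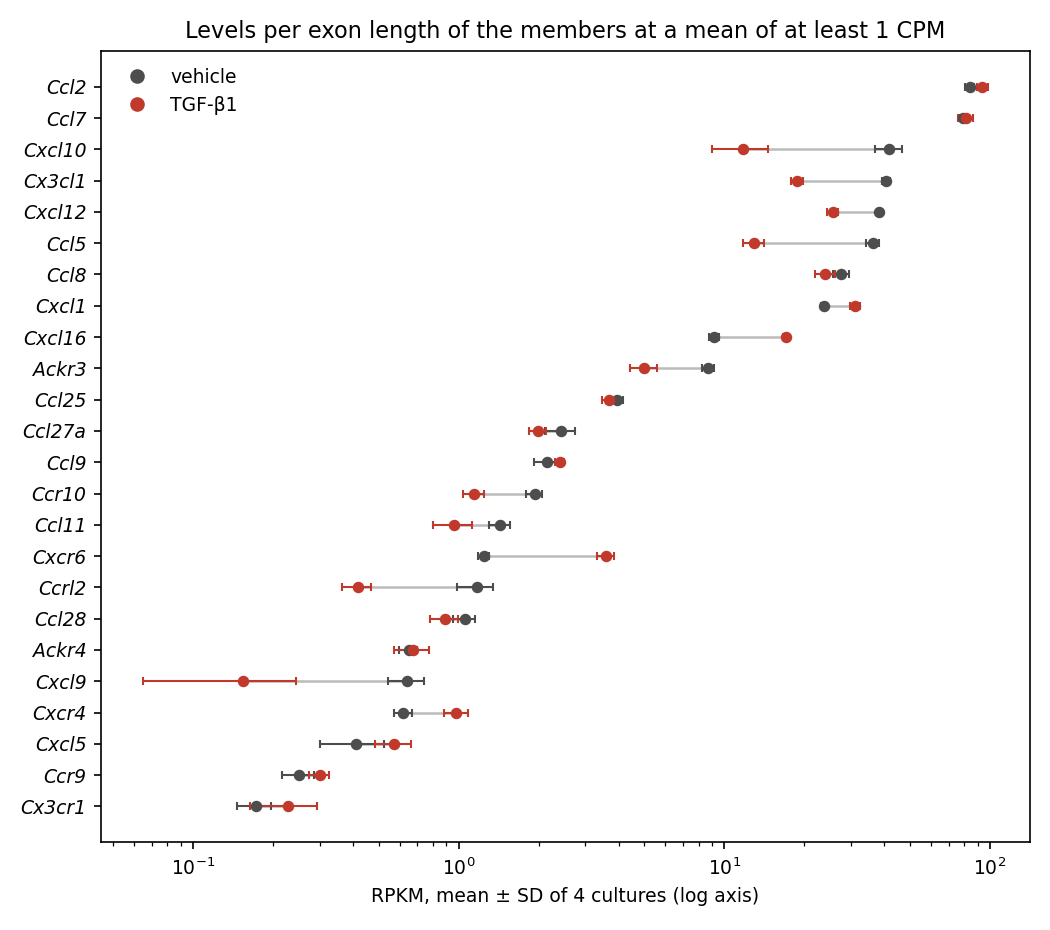
Mean RPKM ± SD of 4 cultures (horizontal log axis) of the 24 members with a mean of at least 1 CPM, in order of the vehicle level, with vehicle in grey and TGF-β1 in red. Ccl2 and Ccl7 are at the top in both groups, and Cxcl9, Cxcl10, Ccl5, Ccrl2 and Cx3cl1 shift furthest to the left.

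Lists of related genes were read in the same test, in which 41.3% of all genes tested were called, 20.9% higher and 20.3% lower. Of 28 genes of NF-kB and inflammatory transcription all were tested, with 10 higher, 10 lower and a median log2 fold change of -0.02. Among those called were Nfkbiz, an atypical IkB protein (74.0 to 114 CPM, 0.63), Cebpb (33.9 to 51.9 CPM, 0.62) and Zfp36, which destabilises cytokine mRNA (49.1 to 35.0 CPM, -0.49). Of 40 genes of chemokine receptor signalling 36 were tested, with 14 higher, 9 lower and a median of 0.08. Gng2, a G protein subunit, was higher at a low level (0.281 to 0.959 CPM, 1.76). Grk3, a kinase that desensitises receptors (35.9 to 17.6 CPM, -1.03), and Pik3r5, a regulatory subunit of PI3 kinase gamma (90.5 to 59.9 CPM, -0.60), were lower.

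Of 11 proteases that cleave or shed chemokines 10 were tested, 7 higher and 3 lower, with a median of 1.08. Over all genes tested, 20.9% were called higher and 20.3% lower. The summed level of the list was 1320 to 1372 CPM with vehicle and 1307 to 1389 CPM with TGF-β1. These ranges overlapped, and most of the sum was Mmp14, which was lower (824 to 704 CPM, -0.23). Mmp13 rose from 38.5 ± 0.951 to 93.3 ± 7.46 CPM (log2 fold change 1.28, adjusted p = 9.33e-19), and Mmp8, Mmp9 and Mmp12 rose by 2.24, 1.32 and 1.10 on the log2 scale from levels under 1 CPM. Chosen after their values were seen, Adam10 and Adam17, which shed Cx3cl1 and Cxcl16 from the membrane, were lower (205 to 172 CPM, -0.26, and 119 to 108 CPM, -0.15). A list of 15 chemokine-like genes, of which Ccl27b is also a member, had 9 tested, 1 higher (Mif, 144 to 196 CPM, 0.45) and 2 lower (Cmtm3, -0.22, and Cmtm7, -0.13). The TGF-β response genes had a median of 1.01, with Ltbp2 (1.89) and Ccn2 (1.10) among the 9 that were higher and Tgfbi lower (-1.50).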

How the data were processed

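Per the labels and the methods, the authors used STAR 2.7.5c on mm10, took out PCR duplicates with SAMtools 1.15 and obtained gene counts from featureCounts 2.0.3. The deposited values are raw counts, without normalization, 1 file per culture. Strandedness in the counting, the annotation and the treatment of multi-mapped reads are not given in the sources used here. Removing duplicates can lower the counts of abundant genes. Symbols, biotypes and exon lengths came from GENCODE M21 on GRCm38, the assembly of mm10, for 54495 of 54532 identifiers.

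Counts were filtered with filterByExpr, scaled with TMM and tested with the edgeR 4.0.16 quasi-likelihood test (robust, group as the only term) in R 4.3.3, with Benjamini-Hochberg adjustment over 22544 genes and a threshold of 0.05; the code was tested on simulated data. Intervals are 95% and unadjusted. Depth put 3 counts at 0.0631 to 0.0657 CPM, and floors cover counting error only. Of counts of 1 to 20, 68.5 to 70.2% were even, so if both mates of a pair were counted, the fragments are fewer. RPKM used the TMM-scaled totals. Alternatives were DESeq2 1.42.0, 3 other scalings, 2 other filters, counts divided by 2, CPM thresholds of 0.5 and 2, and each culture left out. Members called at a mean of at least 1 CPM are given in full, others by mean or highest count, and of each list up to 4 of the largest called changes. The members and lists were chosen with earlier results of these data known. Protein sequences were not used here. Some genes that fall under these rules are not reported here.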

Additional observations from a re-analysis of the deposited data

Results flagged for a closer look

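The 31 tested members and the library total were checked in each group of 4 cultures for a culture far from the others (Dixon's criterion). Of 64 groups examined 3 stood out, where chance at 1 in 20 would give 3.2. Ccl8 was at 10.7 CPM in TGF-β1 culture 8, where the nearest other culture was at 12.7 CPM. Ccrl2 was at 2.34 CPM in vehicle culture 4, with the nearest at 3.20 CPM, and was still lower in all 4 TGF-β1 cultures. Xcr1 was at 0.0438 CPM in vehicle culture 2, with the nearest at 0.126 CPM, a difference of a few counts.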

How the results depend on the processing

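Members called numbered 17 to 21 over the 15 alternatives, with 5 to 10 higher and 10 to 12 lower. Of 266 recomputed fold changes of the 18 called members 262 stayed past the threshold with the same sign, 4 (of Ccl8 and Ccl27a, given above) did not, and 0 changed sign. The higher calls were 5 where at least 10 counts were required in every culture or counts were divided by 2, since Xcr1 and Ccr1 were then not tested, and 10 without vehicle culture 3. With every gene of at least 1 count tested, 20.2% of genes were called, because many more genes with few counts entered. Ccl28 passed the threshold in 6 alternatives (adjusted p 0.0219 to 0.0489), and Ccl6, Ccl25, Cxcl5, Cxcl17 and Cx3cr1, also not called, passed when 1 culture was left out (lowest adjusted p of each 0.0228 to 0.0496). Some members that were not called changed sign when a culture was left out: Ccl7 ranged from -0.0138 to 0.0682 on the log2 scale, Cxcl2 from -0.55 to 0.13, Ccr7 from -0.0714 to 0.38 and Cxcr5 from -0.0255 to 0.45. In the chemokine-like list 1 gene was lower with DESeq2, and leaving out a culture gave 1 to 2 higher and 1 to 2 lower. Members at a mean of 1 CPM numbered 25 by library totals, 26 at 0.5 CPM and 19 at 2 CPM. No paired analysis was possible because the groups share no replicate numbers in the labels, although the methods describe isolates treated with both. Depth limits the 36 members not tested, with at most 16 counts in any culture.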

Other observations

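Cxcl11 (ENSMUSG00000060183), the neighbour of Cxcl9 and Cxcl10 at chr5:92359544-92365485 and in other strains a ligand of Cxcr3 and Ackr3, is annotated as a polymorphic pseudogene and is not among the protein-coding members. It had 65, 66, 81 and 89 counts in the vehicle cultures and 10, 12, 8 and 6 in the TGF-β1 cultures. The groups did not overlap, and its level went from 1.62 ± 0.242 to 0.195 ± 0.0574 CPM (SD, n = 4; log2 fold change -3.04, SE 0.26, edgeR adjusted p = 2.47e-13). On the log2 scale this is a larger fall than that of Cxcl9 or Cxcl10, a difference that was not tested. The gene was chosen after its values were seen.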
